A study of Mus musculus with 4 samples.

Results

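Chemokines are small secreted proteins that guide migrating cells, and 7 chemokine genes were followed through the cells of the mouse Achilles tendon: Cxcl12, Cxcl14, Cxcl1, Cxcl16, Ccl2, Ccl7 and Ccl21a. They were taken by name from the 15746 genes of a single-cell count table, and all 7 were found in it. The stated aim of the study was a catalogue of tendon cell types. Its 4 libraries form 1 group, male C57Bl/6 mice aged 6 weeks, and hold 1191 cells sequenced from the 3′ ends of their transcripts. Whether 1 mouse or a pool went into a library is not stated in the labels, which name no treatment. Each cell carries 1 of 13 population names from the authors' annotation: tendon fibroblasts 1, 2 and 3, bursal fibroblasts, endothelial cells 1, 2 and 3, pericytes, nerve cells 1, 2 and 3, immune cells and red blood cells. Levels are counts of unique molecular identifiers (UMIs, 1 per captured transcript molecule) summed over the cells of a population in a library and given as CPM, the count divided by that sum's total UMIs and multiplied by 1000000.

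A chemokine binds a receptor on the surface of another cell, and the receptor turns the gradient into directed movement. Family names follow the first cysteines of the mature protein: CXC chemokines have another residue between them, and CC chemokines have them side by side. Some members are made constantly and hold cells in place, above all Cxcl12, the ligand of Cxcr4 that retains blood-forming and immune cells in their niches. Cxcl14 is a constitutive chemokine of epithelia and connective tissue. Others are switched on by injury and inflammatory cytokines through NF-kappa-B: Cxcl1 draws neutrophils through Cxcr2, while Ccl2 and Ccl7 draw monocytes through Ccr2. Cxcl16 is made as a membrane protein that can be shed, and Ccl21a is the Ccr7 ligand by which lymphatic vessels guide dendritic cells and T cells.

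The cysteine pairs that separate the families are shown in the coding sequences below, since they are the part of the transcript that gives each member its class. The capitals mark the first cysteine codons with any codon between them, and sequences and coordinates are from the GENCODE annotation of GRCm38, the assembly that is also called mm10.
Cxcl12: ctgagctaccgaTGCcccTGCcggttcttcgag
Cxcl14: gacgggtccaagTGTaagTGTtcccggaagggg
Cxcl1: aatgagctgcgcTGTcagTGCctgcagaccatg
Cxcl16: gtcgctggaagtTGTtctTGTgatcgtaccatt
Ccl2: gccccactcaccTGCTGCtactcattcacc
Ccl7: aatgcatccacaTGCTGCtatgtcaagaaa
Ccl21a: gggggtcaggacTGCTGCcttaagtacagc
In the CXC members a lower-case codon stands between the capitals, and in the CC members none does. The genes lie at chr6:117168535-117181367 (Cxcl12, forward strand), chr13:56288643-56296551 (Cxcl14, reverse), chr5:90891241-90893115 (Cxcl1, forward), chr11:70453983-70459984 (Cxcl16, reverse) and chr4:42772860-42773993 (Ccl21a, reverse). Ccl2, at chr11:82035571-82037453, and Ccl7, at chr11:82045712-82047525, are neighbours on the forward strand with 8258 bases and 0 annotated RefSeq genes between them. Each stretch is exonic and coding; that of Cxcl14 spans an exon boundary, and the others lie within 1 exon.

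The libraries held 580, 246, 256 and 109 cells and between 1375111 and 5603366 UMIs, with median depths from 7440 to 8824 UMIs per cell. No cell barcode was shared between libraries. A population is given a level in a library only with 5 or more cells there, so tendon fibroblasts 3 and endothelial cells 3 have a level in library 1 alone and bursal fibroblasts in libraries 1, 3 and 4. The population names matched their markers: tendon genes such as Col1a1, Tnmd and Fmod made up a median of 11.5%, 10.6% and 9.27% of the UMIs of tendon fibroblasts 1, 2 and 3, against 1.45% in bursal fibroblasts. An exception touches the results for the inducible chemokines. In 4 of the 156 cells named tendon fibroblasts 2 the bursal-lining markers (Prg4, Clic5, Cd55, Htra4) outnumbered the tendon markers. Of these, 2 are among the 9 tendon fibroblasts 2 of library 4. Their bursal and tendon marker UMIs were 827 and 35 among 35288 UMIs, and 30 and 1 among 1540. The cell of library 3 had 27 and 4 among 4795. That of library 1 had 3 and 1 among 7019, few of either kind. Cells with mainly bursal markers are below these 4, by that rule alone. Of the 40 bursal fibroblasts, 38 had more bursal than tendon marker UMIs: 29 of 30, 4 of 5 and 5 of 5 in libraries 1, 3 and 4. No bursal fibroblast was left out of any sum by this rule. In whole libraries, Ccl7 is listed at 0 in library 3 and Ccl21a in library 4. Few genes were found in only 1 or 2 cells of a library (151 to 252) compared with exactly 3 cells (609 to 698), so it is not known whether rare genes were removed before deposit.

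Cxcl12, which holds Cxcr4-bearing cells near its source, was carried mainly by blood vessels, and among fibroblasts by tendon fibroblasts 2 and 3 but hardly by tendon fibroblasts 1. It had 12922 UMIs in 511 cells, 42.9% of all cells. In endothelial cells 1 it stood at 4888, 4015, 5415 and 6407 CPM in libraries 1 to 4 (mean 5181 ± 1001, SD, n = 4). Every library of these cells lay above every library of every other population.
The next levels were 1002, 332 and 1989.7 CPM in tendon fibroblasts 2 (libraries 1, 3 and 4; 1108 ± 834, SD, n = 3). Endothelial cells 2 followed with 769, 634, 673 and 378 CPM (614 ± 167, SD, n = 4), and pericytes, the contractile cells on small vessels, with 454, 429, 955 and 433 CPM (568 ± 258, SD, n = 4). These 3 populations overlapped in range and have no order among them. Without the top cell of each library their means were 676, 536 and 356 CPM, in the order given. In tendon fibroblasts 2 of library 4, 1 cell held 138 of 247 UMIs. In pericytes 1 cell held 88 of 147 UMIs in library 2 and 73 of 98 in library 4.
Tendon fibroblasts 3 had 314 CPM in library 1. Bursal fibroblasts, the lining cells of the bursa beside the tendon, had 658, 49.8 and 228 CPM in libraries 1, 3 and 4, and 223 of their 389 UMIs in library 1 came from 1 cell; without the top cell of each library their mean fell from 312 to 131 CPM. Tendon fibroblasts 1 stood at 9.55, 7.81, 2.70 and 18.9 CPM (9.73 ± 6.75, SD, n = 4), a range that overlapped those of nerve cells 1 and 2 and of immune cells.

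**Figure D1:**
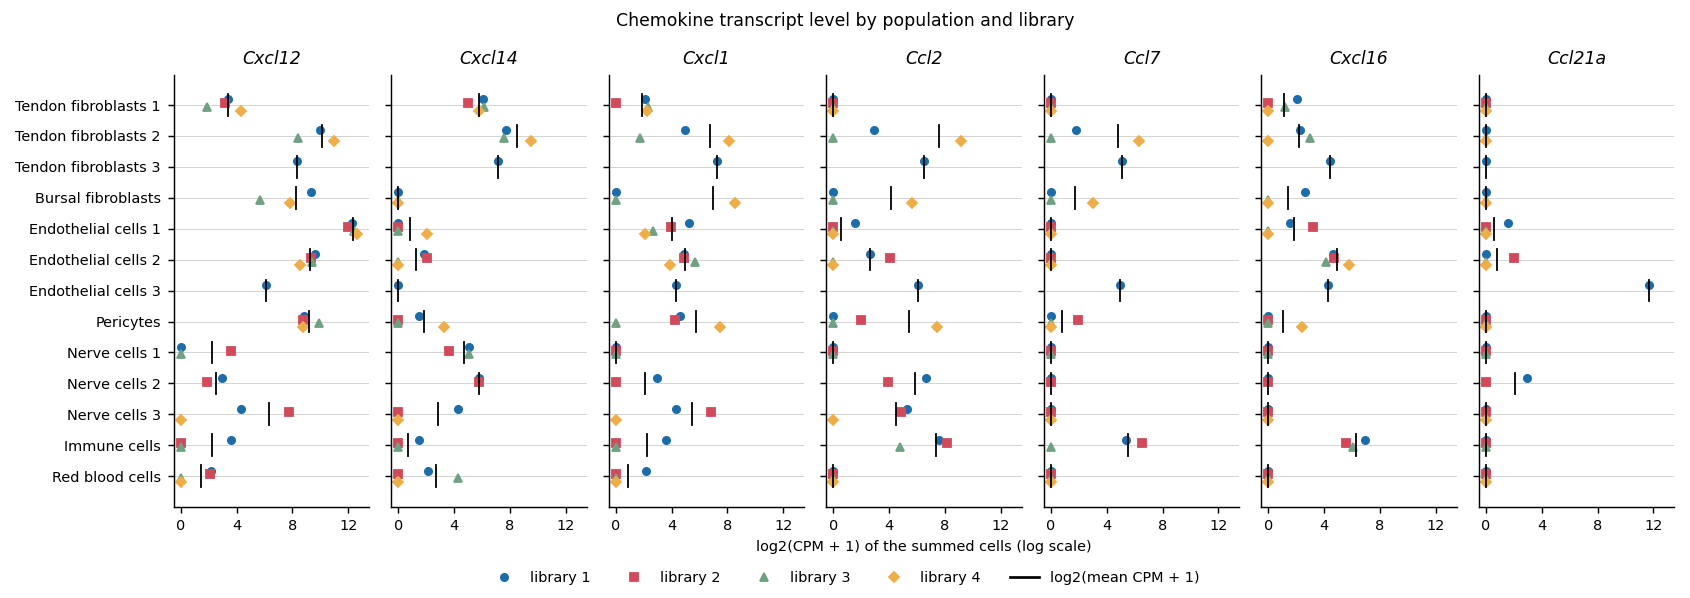
Levels of the 7 chemokines in the 13 populations, as log2(CPM + 1), 1 panel per gene. Points are libraries with 5 or more cells of the population, coloured by library, and black bars are the log2 of the mean CPM + 1; Cxcl12 is spread over vessels, pericytes and fibroblasts, Cxcl14 stands highest in tendon fibroblasts, and Ccl21a is high in endothelial cells 3 alone.

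The share of cells with a Cxcl12 UMI separated the same populations. After every cell was thinned to 2400 UMIs, 167 of 176 endothelial cells 1 held a Cxcl12 UMI (94.9%, exact Clopper-Pearson 95% interval 90.5 to 97.6%). Of tendon fibroblasts 2, 39.9% (31.9 to 48.2%) held one. The share was 59.4% for endothelial cells 2, 40.4% for pericytes, 39.1% for tendon fibroblasts 3 and 35.1% for bursal fibroblasts. In tendon fibroblasts 1 it was 3 of 161 cells (1.86%, 0.386 to 5.35%). Red blood cells, which should not make the transcript, had 0 of 106. A limit of 3 counts then allows up to 2.83%, and the exact interval reaches 3.42%, so tendon fibroblasts 1 were not above that background. Without thinning the shares were 95.3% in endothelial cells 1, 59.0% for tendon fibroblasts 2, 7.51% for tendon fibroblasts 1 and 1.38% in red blood cells. The median depth was 8824 UMIs for tendon fibroblasts 1 and 10662 for the second population. Intervals and limits here cover counting error only, not differences between mice.

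Tests between populations compared the sums of 2 populations within the same libraries with edgeR's quasi-likelihood test, adjusted over all genes. The authors formed the populations from these same cells, so such a test says only whether a difference repeats over libraries. Tendon fibroblasts 1 had less Cxcl12 than tendon fibroblasts 2, by a log2 fold change of -6.50 ± 0.29 (SE), in 3 of 3 libraries (edgeR adjusted p = 9.44e-06). Leaving out the 4 cells with mainly bursal markers gave -6.73 (adjusted p = 2.07e-06). Tendon fibroblasts as a whole lay below endothelial cells by -3.30 ± 0.40 in 4 of 4 libraries (edgeR adjusted p = 4.47e-05). They lay above nerve cells by 4.46 ± 0.87 in 4 of 4 (adjusted p = 0.00497) and above immune cells by 6.02 ± 0.55 in 3 of 3 (adjusted p = 7.84e-06). Endothelial cells 1 exceeded endothelial cells 2 by 2.95 ± 0.19 in 4 of 4 libraries (adjusted p = 1.22e-08), and pericytes lay below all endothelial cells together by -2.62 ± 0.22 in 4 of 4 (adjusted p = 1.45e-05).
The difference between tendon fibroblasts and pericytes, -0.66 ± 0.52, did not pass (edgeR adjusted p = 0.381), nor did that from bursal fibroblasts, 0.85 ± 0.45 (adjusted p = 0.323). Without library 1 the second became 1.76 and passed (edgeR adjusted p = 0.00771). That leaves 5 bursal fibroblasts each in libraries 3 and 4. In every library 1 cell held most of the bursal Cxcl12 UMIs: 223 of 389, 4 of 5 and 22 of 32 in libraries 1, 3 and 4. In cells thinned to 2400 UMIs the differences from pericytes and from bursal fibroblasts took the opposite sign, 0.28 and -0.43. Neither passed (edgeR adjusted p = 0.72 and 0.84).

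Endothelial cells held 82.1% ± 8.06 (SD, n = 4 libraries) of all Cxcl12 UMIs, tendon fibroblasts 11.0% ± 8.19 and pericytes 4.78% ± 1.20. These shares move with how many cells of a type were captured: with every class weighted to the same number of cells, the endothelial share was 72.3%. Library 2, with 14 tendon fibroblasts, had the lowest fibroblast share, 0.304%.

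**Figure D2:**
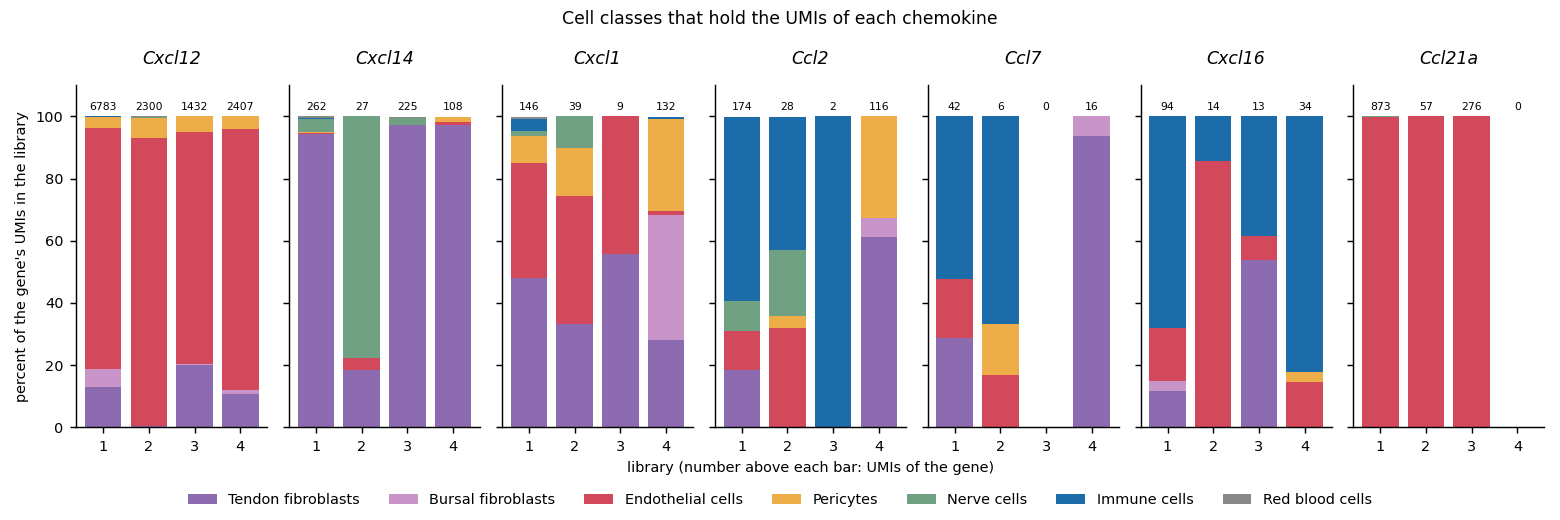
Share of each chemokine's UMIs held by each class of cells, 1 stacked bar per library with its number of UMIs, in percent from 0 to 100. Endothelial cells make up most of every Cxcl12 bar, tendon fibroblasts most of the Cxcl14 bars of libraries 1, 3 and 4, and the inducible chemokines change their main class from library to library.

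Within tendon fibroblasts 2, cells with and without Cxcl12 differed in other fibroblast genes. The general fibroblast markers (Pdgfra, Dpt, Cd34, Ly6a, Col3a1, Lum) made up a median of 2.85% of UMIs in the 38 cells with Cxcl12 and 1.26% in the 29 without it in library 1. The medians were 3.26% and 1.18% in library 3 (48 and 30 cells), and 3.76% and 1.07% in library 4 (5 and 4 cells). The direction was the same in all 3 libraries. The 4 cells with mainly bursal markers had no Cxcl12, and without them the medians of the cells lacking it were 1.28%, 1.20% and 3.28% in libraries 1, 3 and 4, the last from 2 cells and close to the 3.76% of those with it. In tendon fibroblasts 3 of library 1 the medians were 4.05% in the 34 cells with Cxcl12 and 4.16% in the 11 without. Tendon markers in tendon fibroblasts 2 showed no common direction, with medians of 8.12% and 2.25%, 15.0% and 15.6%, and 11.4% and 5.18% in libraries 1, 3 and 4. Depth moved with the first split in 2 of the libraries: cells with Cxcl12 had a median of 10865 UMIs against 8519 in library 1 and 11746 against 7784 in library 3, but 9223 against 15676 in library 4. The part of depth in the split was not tested. Among populations, the general fibroblast markers had medians of 0.295% in tendon fibroblasts 1, 2.17% in 2 and 3.98% in 3.

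Cxcl14, the constitutive connective tissue chemokine, was mainly a transcript of tendon fibroblasts, with a second source in nerve cells. It had 622 UMIs in 143 cells. In tendon fibroblasts 2 it stood at 211, 194 and 709 CPM in libraries 1, 3 and 4 (371 ± 292, SD, n = 3), and library 4 owed 55 of its 88 UMIs to 1 cell, without which it had 282 CPM. Tendon fibroblasts 3 had 138 CPM in library 1.
Tendon fibroblasts 1 had 65.2, 31.3, 70.1 and 52.9 CPM (54.9 ± 17.3, SD, n = 4), below tendon fibroblasts 2 in each of the 3 libraries that have both. Nerve cells 2 reached a similar level, 53.7 and 52.8 CPM in libraries 1 and 2, and nerve cells 1 had 33.3, 11.4 and 32.7 CPM in libraries 1 to 3. Bursal fibroblasts had 0 UMIs in 40 cells, although they are the other fibroblasts of the tissue.
In shares of cells thinned to 2400 UMIs, Cxcl14 was found in 12.4% of tendon fibroblasts 1 (7.76 to 18.5%), 19.6% of tendon fibroblasts 2 (13.5 to 26.9%), 23.9% of tendon fibroblasts 3 (12.6 to 38.8%) and 15.6% of nerve cells 2 (6.49 to 29.5%). Red blood cells gave 0.943%, and endothelial cells 1 gave 0 of 176, which allows up to 1.70% by the limit of 3 counts and 2.07% by the exact interval.

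Over libraries 1, 3 and 4, tendon fibroblasts held 571 Cxcl14 UMIs and bursal fibroblasts 0, which at a floor of 3 UMIs over the group makes the level at least 42.4-fold higher (edgeR adjusted p = 5.23e-05, higher in 3 of 3 libraries). Against endothelial cells the pooled ratio was 155 (576 against 3 UMIs, 95% interval 52.7 to 753, edgeR adjusted p = 6.62e-08). It was 58.6 against pericytes (20.0 to 285, adjusted p = 1.6e-06) and 88.9 against immune cells (15.9 to 3517, adjusted p = 1.48e-05). Without library 1 the gene did not pass the low-count filter against pericytes or immune cells. Tendon fibroblasts 2 exceeded tendon fibroblasts 1, with 1 against 2 at -1.96 ± 0.36 in 3 of 3 libraries (edgeR adjusted p = 0.00878).
The difference from nerve cells was 1.77 ± 0.60 (edgeR adjusted p = 0.0558). That call depended on the treatment of the data: DESeq2 gave 1.91 (adjusted p = 0.0364), and leaving out library 4, whose nerve cells have 0 Cxcl14 UMIs, gave 1.40 (adjusted p = 0.00717). It did not pass in cells thinned to 2400 UMIs (0.95, edgeR adjusted p = 0.109). Nor did it without library 1 (1.62, adjusted p = 0.224), library 2 (2.40, adjusted p = 0.0519) or library 3 (1.84, adjusted p = 0.135). Tendon fibroblasts held 94.3%, 97.3% and 97.2% of all Cxcl14 UMIs in libraries 1, 3 and 4. In library 2 the share was 18.5%, and nerve cells held 77.8% there.

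**Figure D3:**
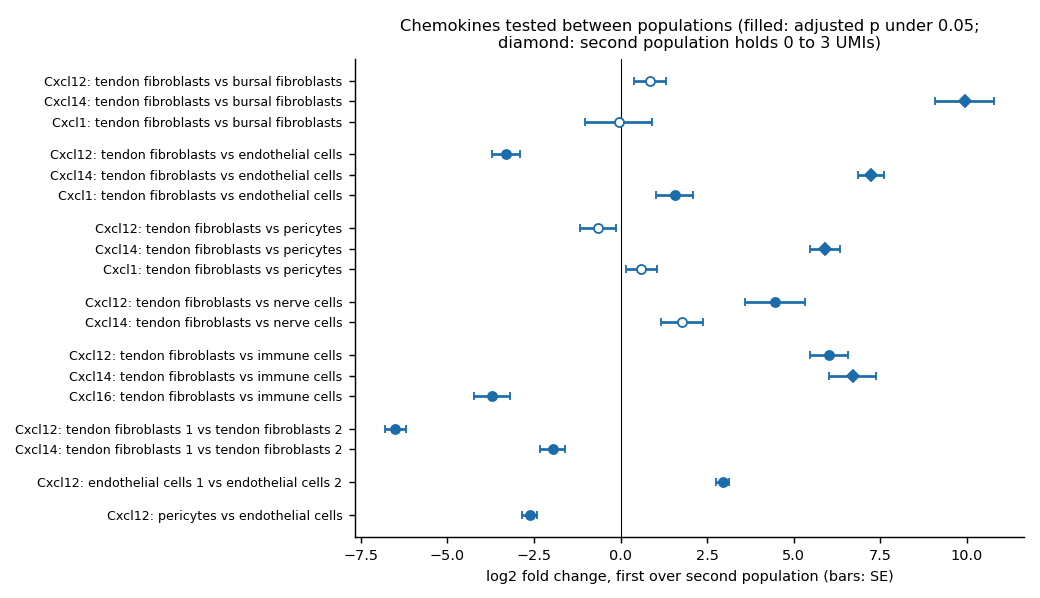
Log2 fold changes of the tested chemokines in the 8 comparisons, with standard errors from edgeR; positive values are higher in the first population named. Filled symbols have an adjusted p under 0.05, and diamonds mark a second population with 0 to 3 UMIs, where the fitted value depends on the model; Cxcl14 lies on the positive side in each comparison of all tendon fibroblasts with another class.

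Cxcl1, Ccl2 and Ccl7, the chemokines that injury and cytokines induce, had few UMIs and these sat in few cells. Cxcl1, the neutrophil attractant, had 326 UMIs in 81 cells, Ccl2 320 in 57 cells and Ccl7 64 in 20. The 5 cells with most UMIs held 41.1% of all Cxcl1, 51.2% of Ccl2 and 59.4% of Ccl7, against 12.2% of Cxcl12 and 31.4% of Cxcl14. Library means of these genes can therefore be set by a single cell, and values without the top cell of each library are given beside the higher levels.

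**Figure D4:**
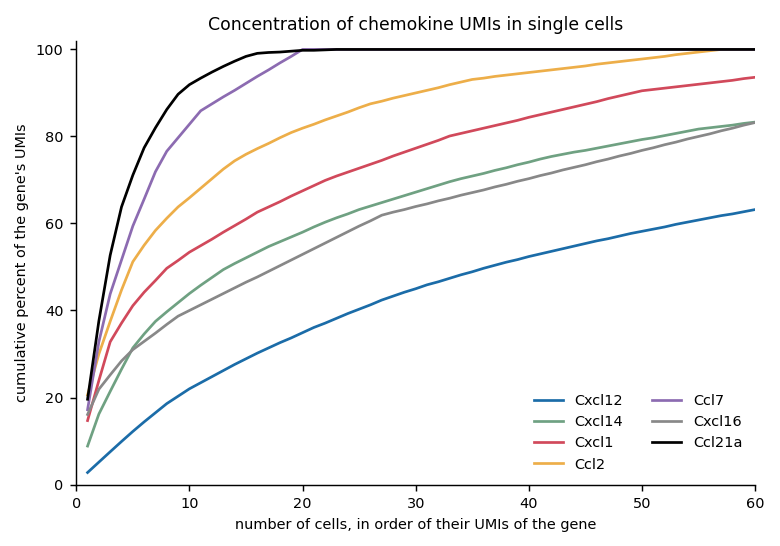
Cumulative percent of each chemokine's UMIs, over all libraries, against the number of cells ranked from the highest count. The curves of Ccl7, Ccl2 and Ccl21a climb past 50% within the first 5 cells, while Cxcl12 is at 12.2% there.

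Cxcl1 was spread over fibroblasts and vessels. Tendon fibroblasts 3 had 152 CPM in library 1, where 12 of 45 cells held its 45 UMIs, and 108 CPM without its top cell. After thinning, 12 of 46 cells over all libraries had one (26.1%, 14.3 to 41.1%). This share lay above those of tendon fibroblasts 1 (1.86%), tendon fibroblasts 2 (1.35%) and red blood cells (0.943%), whose intervals end at 5.35%, 4.80% and 5.14%. Its interval overlapped those of endothelial cells 2 (to 18.0%), endothelial cells 3 (to 16.2%) and nerve cells 3 (to 26.0%). Thinned to 1000 UMIs, the intervals of tendon fibroblasts 3 (2.18 to 18.9%) and 2 (0.703 to 6.43%) overlapped. Of the 51 tendon fibroblasts 3, 45 were from library 1. Of the 156 tendon fibroblasts 2, 78 were from library 3, where all cells together held 9 Cxcl1 UMIs.
Levels in tendon fibroblasts 2 were 29.5, 2.32 and 282 CPM in libraries 1, 3 and 4. The last fell to 45.8 CPM without the 2 cells of library 4 whose markers are mainly bursal, and the mean from 105 to 26.0 CPM. Bursal fibroblasts had 0, 0 and 377 CPM, with 48 of 53 UMIs in 1 cell of library 4. Pericytes had 23.6, 17.5, 0 and 172 CPM, the last from 29 and 10 UMIs in 2 cells.
Endothelial cells 2 had 28.8, 28.3, 50.5 and 13.5 CPM (30.3 ± 15.2, SD, n = 4; 8.70% of thinned cells), and 22.5, 12.9, 0 and 0 CPM without the top cell of each library. Endothelial cells 1 had 37.6, 14.5, 5.28 and 3.22 CPM, tendon fibroblasts 1 had 2.75 ± 1.87 (SD, n = 4), and nerve cells 1 had 0 UMIs in 49 cells.
Tendon fibroblasts together had 41.0, 74.6, 3.10 and 87.9 CPM of Cxcl1 against 32.5, 19.5, 14.7 and 5.06 in endothelial cells, a log2 difference of 1.56 ± 0.54, higher in 3 of 4 libraries (edgeR adjusted p = 0.0376). This call was lost in DESeq2 (1.49, adjusted p = 0.15), without the library block (1.31, adjusted p = 0.157), without library 2 (1.30, adjusted p = 0.122) and without library 4 (0.94, adjusted p = 0.163). It was also lost without the cells of mainly bursal markers (1.07, adjusted p = 0.0819) and without the top 3 cells of each library (0.49, adjusted p = 0.442). In library 2 all 13 tendon fibroblast UMIs of Cxcl1 came from 1 cell, whose tendon markers were at 1.18%. In library 4, 30 of 37 came from 1 cell with mainly bursal markers. Against pericytes Cxcl1 differed by 0.60 ± 0.45 (edgeR adjusted p = 0.351), and by 1.58 without library 4 (adjusted p = 0.0457).
Against bursal fibroblasts the difference was -0.05 ± 0.97 (edgeR adjusted p = 0.99), and without library 1, which leaves the library of the 48-UMI cell and library 3, it was -1.77 (adjusted p = 0.0346).

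Ccl2, the main monocyte attractant, had its most numerous positive cells among immune cells. There it stood at 191, 278 and 26.4 CPM in libraries 1 to 3 (165 ± 128, SD, n = 3), in 28 of 92 cells. Without the top cell of each library the levels were 149, 27.1 and 14.6 CPM (mean 63.4), since 1 cell held 11 of the 12 UMIs of library 2. After thinning, 15 of 87 immune cells had it (17.2%, 9.98 to 26.8%), against 0 of 106 red blood cells. Library 4 had 3 immune cells and no Ccl2 UMI in them.
Tendon fibroblasts 2 had a higher mean, 187 ± 319 CPM (SD, n = 3), from 6.40, 0 and 556 CPM. Of the 69 UMIs behind the last value, 66 came from 1 cell and the other 3 from a second, and both are the cells of library 4 in which bursal markers outnumber tendon markers. Without the 4 such cells the levels were 6.46, 0 and 0 CPM. Tendon fibroblasts 3 had 91.1 CPM in library 1, with 23 of 27 UMIs in 1 cell, and 13.9 CPM without it. Tendon fibroblasts 1 had 0 Ccl2 UMIs in 173 cells.
Endothelial cells 3 had 66.7 CPM in library 1, or 37.2 without the top cell, with Ccl2 in 15.6% of thinned cells (5.28 to 32.8%), whereas endothelial cells 1 had 2 UMIs in 190 cells. Pericytes had 0, 2.92, 0 and 168 CPM, with 30 of the last library's UMIs in 1 cell. Nerve cells 2 had 101 and 13.9 CPM in libraries 1 and 2, and 49.4 and 2.88 without the top cells.
Ccl7, its neighbour on chromosome 11, was found at lower counts: 40.8 and 92.8 CPM in immune cells of libraries 1 and 2 with library 3 listed at 0, 33.8 in tendon fibroblasts 3, 29.6 in endothelial cells 3, and 2.56, 0 and 80.6 in tendon fibroblasts 2. In the last, 10 UMIs came from the cell that held 66 of Ccl2, and without cells of mainly bursal markers library 4 had 0. Without the top cell of each library, immune cells had 20.9, 0 and 0 CPM of Ccl7, tendon fibroblasts 3 had 10.4 and endothelial cells 3 had 11.7. Pericytes, with 39 Ccl2 UMIs, had 1 of Ccl7, and nerve cells 2, with 20, had 0.
Neither gene passed the low-count filter of any comparison with all its libraries. With 1 library left out, Ccl2 passed it against endothelial cells, at 2.56 without library 2 (edgeR adjusted p = 0.0373) and 0.51 without library 4 (adjusted p = 0.588). Against bursal fibroblasts it had 2.48 without library 3 (adjusted p = 0.000926) and 1.90 without library 1 (adjusted p = 0.0971). Against immune cells Ccl2 had -3.13 without library 2, and Ccl7 had -2.59 without library 3. With no such filter, Ccl2 lay below immune cells in tendon fibroblasts by -3.48 ± 0.49 (edgeR adjusted p = 5.34e-11) and Ccl7 by -2.49 ± 0.78 (adjusted p = 0.0103). Library 4, which holds most of the fibroblast Ccl2, is not in that comparison. Where it is, and with no filter, Ccl2 lay above endothelial cells by 2.13 ± 0.40 (edgeR adjusted p = 7.49e-07) and above bursal fibroblasts by 2.51 ± 0.60 (adjusted p = 0.000691). It did not pass against pericytes (1.01, adjusted p = 0.111) or nerve cells (0.03, adjusted p = 0.981). Fits with no filter gave far smaller p-values for the same counts. Cxcl14 against immune cells had an edgeR adjusted p of 5.38e-16 there and 1.48e-05 with the filter. The p-values with no filter are therefore not on one scale with the others.

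Ccl2 and Ccl7 were often found in the same cells. Ccl7 was found in 20 cells and Ccl2 in 57, and 15 cells had both, which is 75.0% of the first and 26.3% of the second. These 15 were 7 immune cells, 5 tendon fibroblasts, 2 endothelial cells and 1 bursal fibroblast. Cxcl1 and Ccl2 shared 11 cells, 13.6% of the Cxcl1 cells and 19.3% of the Ccl2 cells. All 3 genes were found in 5 cells, 4 named tendon fibroblasts and 1 named bursal fibroblast. No test of association was made, since deeper cells find more of every gene.

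Taking 5 or more UMIs of Cxcl1 and Ccl2 together as a high cell, a limit set after the values were seen, gave 26 cells: 17, 4, 0 and 5 in libraries 1 to 4. By name they were 6 immune cells, 4 tendon fibroblasts 3, 3 tendon fibroblasts 2, 3 endothelial cells 1, 3 pericytes, 2 each of bursal fibroblasts, endothelial cells 2 and nerve cells 2, and 1 endothelial cell 3. None was a tendon fibroblast 1, the largest fibroblast population. The highest cell, of library 4 and named tendon fibroblasts 2, held 66 Ccl2, 30 Cxcl1 and 10 Ccl7 UMIs among 35288. Its tendon markers came to 0.0992% of UMIs, against the 10.6% median of its population, its bursal markers to 2.34%, and it had 69 UMIs of Nfkbia, the NF-kappa-B inhibitor that NF-kappa-B itself induces.
A bursal fibroblast of the same library held 48 Cxcl1, 7 Ccl2 and 45 Nfkbia UMIs, with bursal markers at 2.67%. Of the 4 high tendon fibroblasts 3, the 3 of library 1 carried tendon markers: the one with 23 Ccl2, 6 Cxcl1 and 7 Ccl7 UMIs had them at 12.9% and 2 Nfkbia UMIs, and the one with 14 Cxcl1 UMIs had them at 9.14%. The one of library 2, with 13 Cxcl1 UMIs, had them at 1.18%, below the 9.27% median of its population. An immune cell of library 1 held 24 Ccl2 and 5 Cxcl1 UMIs along with 79 of Cxcl2, a neutrophil attractant related to Cxcl1. Ptprc, the pan-leukocyte antigen CD45, had 0 UMIs in every high cell outside the immune population. Among the same cells C1qa had 1 UMI, in 1 tendon fibroblast 3 (the one with 4 Cxcl1 and 3 Ccl2 UMIs). The macrophage and monocyte markers together had 1 UMI in that cell. They also had 1 UMI each in 1 endothelial cell 1, 1 pericyte of library 1 and 1 bursal fibroblast, and 0 in the rest.
Leukocyte markers in the whole populations were near 0: all 4 (Ptprc, Cd52, Laptm5, Coro1a) were at 0 UMIs in bursal fibroblasts and in tendon fibroblasts 2 and 3, and at 2026 CPM together in immune cells. Macrophage markers summed to 11.8 CPM for tendon fibroblasts 2 and 48.7 for tendon fibroblasts 3, with Adgre1 and Fcgr1 at 0, against 17418 CPM in immune cells.

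For Cxcl1 the region at its start holds a match to an NF-kappa-B site, shown here because the gene is the NF-kappa-B-responsive member with a promoter in the RefSeq table (4 of 7 members have one). The sequence is chr5:90890995-90891294 of GRCm38.p6, forward strand, and the capitals mark the match.
Cxcl1 promoter: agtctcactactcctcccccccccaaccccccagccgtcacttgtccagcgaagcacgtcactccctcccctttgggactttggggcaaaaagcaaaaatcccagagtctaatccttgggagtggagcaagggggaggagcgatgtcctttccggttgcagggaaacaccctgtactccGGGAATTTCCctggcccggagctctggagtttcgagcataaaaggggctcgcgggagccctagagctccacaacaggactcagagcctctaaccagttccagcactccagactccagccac
The pattern searched was GGGA, then any base, then TTTCC, on both strands, and its match lies 71 bases before the start. It is found in 135 of 32851 promoters of this length (0.411%) and in 1 of the 4 members. A match is a description of letters, not evidence of binding.

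Cxcl16, the membrane chemokine and scavenger receptor of macrophages, was highest in immune cells and second in endothelial cells 2. It had 155 UMIs in 86 cells. Immune cells had 119, 46.4 and 66.0 CPM in libraries 1 to 3 (77.0 ± 37.3, SD, n = 3), in 42 of 92 cells, and 18 of 87 after thinning (20.7%, 12.7 to 30.7%). In library 4, 25 of 28 immune UMIs came from 1 of 3 cells.
Endothelial cells 2 had 23.6, 25.1, 16.8 and 54.0 CPM (29.9 ± 16.5, SD, n = 4), a range that meets that of immune cells, with 8.70% of thinned cells. Endothelial cells 1 had 1.98, 8.31, 0 and 0 CPM, below endothelial cells 2 in 4 of 4 libraries. Tendon fibroblasts 3 had 20.3 and endothelial cells 3 had 18.5 CPM in library 1, while tendon fibroblasts 1 and 2, bursal fibroblasts and pericytes had means from 1.10 to 3.61 CPM. Nerve and red blood cells had 0 UMIs.
Tendon fibroblasts lay below immune cells by -3.71 ± 0.51 in 3 of 3 libraries (edgeR adjusted p = 0.00017). Without library 1 no member passed the filter in that comparison. The 2 blood endothelial populations could be compared for Cxcl16 only with no filter. There endothelial cells 1 lay below 2 by -3.03 ± 0.73 (edgeR adjusted p = 0.000902). As above, that p-value is not on one scale with those of filtered fits.

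Ccl21a, the lymphatic chemokine, was confined to endothelial cells 3 but for 4 of its 1206 UMIs. The population had 870, 56, 276 and 0 UMIs in libraries 1 to 4 and 3222 CPM in library 1, the one with 5 or more of these cells. Of its 36 cells 20 had the transcript, and 18 of 32 after thinning (56.2%, 37.7 to 73.6%). Among those 20 the median was 22.5 UMIs and the highest 236, and 4 cells held 770 UMIs, 64.1% of the population's.
The lymphatic identity of endothelial cells 3 rests on other genes. Prox1, the transcription factor that sets lymphatic fate, was found in 19 of the 20 cells with Ccl21a and 12 of the 16 without. Mmrn1 was found in 20 and 12 of them and Flt4, the VEGF-C receptor, in 20 and 9. Lyve1, a hyaluronan receptor of capillary lymphatics, was found in 9 of 20 cells with Ccl21a and 0 of 16 without, and Pdpn in 15 and 6. The cells with Ccl21a were deeper, at a median of 6152.5 against 4787.5 UMIs, and the part of depth in these counts was not tested. All 3 endothelial cells 3 of library 4 were without Ccl21a.

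The counts of Ccl21a are uncertain in origin, because the mouse carries near-identical copies of the gene. The table lists 1 of them, Gm21541, at chr4:41903610-41904743 on the forward strand, with 45 UMIs, all in 7 endothelial cells 3 that also had Ccl21a. Its transcript matches that of Ccl21a at 864 of 870 bases (99.3%), with 3 differences in the last 300, where 3′ reads fall. The coding stretch around the cysteines is shown for both genes, with the cysteine codons in capitals.
Ccl21a copy: gggggtcaggacTGCTGCcttaagtacagc
Gm21541: gggggacaggacTGCTGCcttaagtacagc
The coding sequence of Ccl21b, another copy, matches Ccl21a at 397 of 399 bases (99.5%). How reads were divided between copies is not given in the sources used here.

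Counts of members called are read against the share of all tested genes called in either direction. Of the chemokines that passed the low-count filter, 1 of 3 was called between tendon and bursal fibroblasts, where 11.0% of all genes were, and 3 of 3 against endothelial cells, with 42.2% of all genes. It was 1 of 3 against pericytes (32.5% of all genes), 1 of 2 against nerve cells (28.7%) and 3 of 3 against immune cells (29.1%). Between tendon fibroblasts 1 and 2 it was 2 of 2 (8.12% of all genes), between endothelial cells 1 and 2 it was 1 of 1 (18.2%), and between pericytes and endothelial cells 1 of 1 (34.1%). A member passes the filter only with enough counts on a side, so these are not shares of all 7.

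The receptors of these ligands lay mostly outside the fibroblasts. Of 18 chemokine receptor genes 9 were measured, and the 6 that reached 50 CPM in a population as a mean did so in immune cells alone. Cxcr4, the Cxcl12 receptor, had 169, 742 and 383 CPM in immune cells of libraries 1 to 3 and was found in 52 of 92 cells. Ccr1, a receptor of Ccl7, had 246, 116 and 106 CPM, and Ccr2, the receptor of Ccl2 and Ccl7, had 165, 0 and 0 CPM.
Ccr7, the receptor of Ccl21a, had 18.5, 464 and 0 CPM, from 30 UMIs in 7 cells, and Cx3cr1 had 157, 0 and 0 CPM. Among the receptors tested between tendon fibroblasts and immune cells, where 12.7% of all genes were lower in fibroblasts, Cxcr4 was lower by -6.53 ± 0.45 (edgeR adjusted p = 1.07e-06) and Ccr1 was lower with an adjusted p of 1.08e-05, each in 3 of 3 libraries. Cxcr2, through which Cxcl1 acts, had few UMIs in any class: 8 in 7 of 107 pericytes, 6 in 5 of 300 endothelial cells, 4 in 4 of 380 tendon fibroblasts and 2 in 1 immune cell.

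Decoy receptors, which bind chemokines without driving migration, were carried by the tissue cells. Ackr3, which removes Cxcl12, stood at 296, 241, 248 and 299 CPM in tendon fibroblasts together (271 ± 30.7, SD, n = 4) and at 380.5, 747 and 968 CPM in bursal fibroblasts. Tendon fibroblasts exceeded endothelial cells by 2.62 ± 0.31 in 4 of 4 libraries (edgeR adjusted p = 3.29e-05) and pericytes by 2.40 ± 0.26 in 4 of 4 (adjusted p = 2.76e-05). They lay below bursal fibroblasts by -1.12 ± 0.31 in 3 of 3 (adjusted p = 0.0364).
Tendon fibroblasts 1, which hardly carried Cxcl12, had Ackr3 at 218, 195, 315 and 268 CPM, and tendon fibroblasts 2, which carried it, at 453, 193 and 403 CPM in libraries 1, 3 and 4. The fitted difference was -0.10 ± 0.30 (edgeR adjusted p = 0.919). Tendon fibroblasts 3 had 43.9 CPM of Ackr3 in library 1.
Ackr1, which carries inflammatory chemokines across venules, had 304, 578, 555 and 284 CPM in endothelial cells 2 and separated them from endothelial cells 1 (edgeR log2 fold change of 1 against 2 -6.30 ± 0.35, adjusted p = 2.66e-09, 4 of 4 libraries). Ackr2, which degrades inflammatory CC chemokines such as Ccl2, had 95.5, 54.7, 72.8 and 83.1 CPM in tendon fibroblasts 1, and 4.87 ± 0.59 separated all tendon fibroblasts from endothelial cells (edgeR adjusted p = 4.45e-05). Ackr4, which removes Ccl21, had 21.8, 149 and 8.06 CPM in tendon fibroblasts 2.
Adam10 and Adam17, the proteases that shed Cxcl16, were found with and without it. Adam10 was highest in nerve cells 1, at 1067, 636 and 833 CPM in libraries 1 to 3, where Cxcl16 had 0 UMIs. It stood at 194 ± 23.5 CPM in endothelial cells 1, 199.6 ± 38.1 in endothelial cells 2 (SD, n = 4 each) and 114 ± 7.57 in immune cells (SD, n = 3), and was lower in tendon fibroblasts than in endothelial cells by -1.56 ± 0.20 in 4 of 4 libraries (edgeR adjusted p = 6.19e-05). Adam17 had 126 ± 14.7 CPM in immune cells (SD, n = 3) and 69.1 ± 10.0 in tendon fibroblasts 1 (SD, n = 4). Between tendon fibroblasts and endothelial cells, 5 of the 8 genes of the decoy and shedding list were tested, 2 higher and 2 lower in fibroblasts, with 21.3% of all genes higher and 20.9% lower.

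Other chemokines were mainly those of immune cells. Of 34 further chemokine genes 20 were measured and 8 reached 50 CPM in a population. Pf4, the platelet and macrophage chemokine, had 4332, 1693 and 4239.8 CPM in immune cells of libraries 1 to 3. Cxcl2 had 226, 1623 and 0 CPM there, with 79 of 192 UMIs in 1 cell, and Ccl9 had 422, 0 and 423 CPM. Ccl4, Ccl6 and Ppbp also had their highest means in immune cells, between 149.9 and 167 CPM.
Outside them, Cxcl9, an interferon-induced chemokine, had 121, 93.5, 15.8 and 0 CPM in endothelial cells 1, in 40 of 190 cells. Cxcl10, also interferon-induced, had 510.4, 165 and 20.20 CPM in nerve cells 3 of libraries 1, 2 and 4. In tendon fibroblasts 3, Ccl9 had 37.1 and Cxcl10 50.6 CPM in library 1.

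Genes that respond to tissue dissociation and to NF-kappa-B are given beside the inducible chemokines, since both programmes can raise them. The 16 dissociation and immediate early genes summed to 7309.9 ± 2176 CPM for tendon fibroblasts 1 (SD, n = 4), 5305 ± 1278 for the second population (SD, n = 3), 7658 for the third, 11387 ± 3408 in pericytes and 9776 ± 1149 in endothelial cells 2. Between tendon fibroblasts 1 and 2, 5 of 16 tested genes of this list were higher in 1, where 4.33% of all genes were, and 0 lower, where 3.79% were (median log2 difference 0.84, and 0.01 over all genes). Against bursal fibroblasts, 11 of 15 were higher in tendon fibroblasts (7.35% of all genes) and 0 lower (3.67% of all genes; median 1.72, and 0.03 over all genes).
The 18 NF-kappa-B and cytokine response genes summed to 971 ± 248 CPM for tendon fibroblasts 1 (SD, n = 4) and to 1562 ± 538 for the second population (SD, n = 3; 1441, 1095 and 2151 in libraries 1, 3 and 4). They came to 3344 ± 701 in endothelial cells 2 against 1598 ± 175 in endothelial cells 1 (SD, n = 4 each). Of 12 tested, 0 were higher in tendon fibroblasts 1 than in 2, where 4.33% of all genes were (median -0.31, and 0.01 over all genes). Csf1, Icam1 and Vcam1, 3 of the 12, were lower, where 3.79% of all genes were. Nfkbia differed by 0.01 ± 0.35 (edgeR adjusted p = 0.996). The 2151 CPM of library 4 includes the cell with mainly bursal markers and 69 Nfkbia UMIs. Of 10 tested, 1 was higher and 6 lower in endothelial cells 1 than in 2, with 7.74% of all genes higher and 10.5% lower (median -0.79, and 0.02 over all genes). The part of either programme in the chemokine levels was not tested.

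The genes whose levels over the 13 populations were most like each member are given as a description, with Pearson r of log2(mean CPM + 10) and no test. The 13 points share libraries and differ in depth. For Cxcl12 they were Ebf3 (r = 0.883), Mcc (0.882) and Rapgef4 (0.879), and for Cxcl14 Vit (0.853), 9330159F19Rik (0.843) and Ubtd2 (0.837). For Cxcl1 they were Klhl13 (0.966), Serping1 (0.919) and Islr (0.894), and for Cxcl16 Rab3il1 (0.922), Tifa (0.913) and Gmfg (0.893).
For Ccl2 they were Arap1 (0.816), Adam19 (0.778) and Tubb6 (0.772), and for Ccl7 Adam19 (0.879), Dapk1 (0.877) and Lst1 (0.858). Ccl2 and Ccl7 correlated with each other at 0.816, and Cxcl12 with Cxcl14 at 0.017. The genes most like Ccl21a were its copy Gm21541 (0.999), Klrb1f and Duox2 (0.998 each), and r is near 1 for any gene found in endothelial cells 3 alone. Over the 39 sums of single libraries r was lower for the genes of the inducible members: 0.378 to 0.529 for Cxcl1, 0.451 to 0.744 for Ccl2 and 0.421 to 0.533 for Ccl7. It was 0.740 to 0.869 for Cxcl12, 0.654 to 0.796 for Cxcl14, 0.805 to 0.886 for Cxcl16 and 0.987 to 0.995 for Ccl21a.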

How the data were processed

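Cells of 4 droplet libraries (10x Genomics 3′ chemistry) were analysed from the count table the authors deposited, which holds UMI counts per gene and cell. Per the submitters' processing notes, Cell Ranger, Seurat 2.3.4, R 3.5.2 and the mm10 build were used; their roles, filters and counting settings are not given in the sources used here. A deposited table of normalized values is on a natural log scale, ln(1 + 10000 × count / cell total), which recomputed values matched to within 5.0e-10, and served only for that check. Of 15750 entries, 4 with repeated names were left out (0.0186% of UMIs). Population names are the authors'; no cell was removed, no doublet caller was run, and whether doublets were removed before deposit is not given.

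Counts were summed per library and population (5 or more cells) and tested in R 4.3.3 with edgeR 4.0.16 and limma 3.58.1 (quasi-likelihood test, TMM, filterByExpr, library as a block, Benjamini-Hochberg over all genes, threshold 0.05). DESeq2 1.42.0 was an alternative. Sums of 1 library share its cells' source, which is the pairing; the deviations of such sums correlated between -0.011 and 0.173 over 29 library pairs. Tested on simulated data, in which 200 genes were given a log2 change of 2, it recovered 97.5% for tendon fibroblasts against endothelial cells (7563 genes), 81.5% against immune cells (5204), 93.0% for tendon fibroblasts 1 against 2 (7043) and 95.5% for endothelial cells 1 against 2 (5126). The simulated counts held no library effect and no difference between populations beyond those 200 genes, unlike the real data. The recovered shares do not give the rate of false calls. Shares of cells were computed after thinning to 2400 UMIs, which left out 114 cells. Depth per library was 1375111 to 5603366 UMIs, and the number of cells sets the precision of a population. Other work was done in python 3.11.15 with pandas 2.3.3, numpy 2.4.6, biopython 1.88, scipy 1.17.1 and matplotlib 3.10.9.

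The members, gene lists, markers and rules were chosen with earlier results of these data known. Named genes are the 7 chemokines, list genes with a mean of 50 or more CPM in a population with 2 or more sums, and the 3 genes most like each member among those with 50 or more CPM. The leave-out of top cells and of cells with mainly bursal markers, the limit of 5 UMIs for a high cell and the split of tendon fibroblasts 2 by Cxcl12 were chosen after seeing the data. One receptor gene is not reported here.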

Additional observations from a re-analysis of the deposited data

Results flagged for a closer look

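Of 25 sets of 4 library levels of a chemokine in a population, 10 had a highest library that stood apart from the other 3 by a gap above Dixon's 95% limit for 4 values; chance gives about 1 in 20 sets, and counts at or near 0 give such gaps easily. The levels with substantial counts were those of pericytes: Cxcl12 at 955 CPM in library 3 (11 cells), and Cxcl1 at 172 CPM and Ccl2 at 168 CPM in library 4. There 2 of 16 pericytes held all 39 Cxcl1 UMIs (29 and 10) and, in the same order, 7 and 30 of the 38 Ccl2 UMIs.

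The other 7 rest on 1 or 2 UMIs in a library whose neighbours are at 0 or near it. These were Cxcl14 at 3.22 CPM in endothelial cells 1 of library 4, Cxcl1 at 3.44 CPM in red blood cells of library 1, and Ccl2 at 1.98 CPM and Ccl21a at 1.98 CPM in endothelial cells 1 of library 1. Ccl7 stood at 2.92 CPM in pericytes of library 2, Cxcl16 at 4.42 CPM in pericytes of library 4 and Ccl21a at 3.14 CPM in endothelial cells 2 of library 2.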

How the results depend on the processing

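Of 449 values recomputed under other settings, 370 kept their direction and their side of the threshold or stayed within the limit for a count. In 5 a fold change that passed in neither setting changed sign: for Cxcl1 against bursal fibroblasts -0.05 became 1.43 in DESeq2 and 0.01 with no filter, for Cxcl1 against pericytes 0.60 became -0.07 with no replicate block, and in thinned cells Cxcl12 became -0.43 against bursal fibroblasts and 0.28 against pericytes. No called fold change changed sign. Where the number of all genes called is not given beside a count of chemokines, it stayed within the limit for a count, a fixed fold of the main number called. With no filter on low counts, 14114 to 15304 genes were tested in a comparison. With no filter on low counts, the chemokines called were 2 (bursal), 6 (endothelial), 2 (pericytes), 3 (nerve), 6 (immune), 5 (tendon fibroblasts 1 against 2), 2 (endothelial cells 1 against 2) and 4 (pericytes against endothelial); all genes called were 1135 (bursal), 2486 (nerve), 2856 (immune), 1073 (tendon fibroblasts 1 against 2) and 3046 (pericytes against endothelial), against 676, 1400, 1516, 572 and 1985. Thinned to 2400 UMIs, where fewer genes pass the filter, chemokines called were 1 (endothelial) and 0 (pericytes, nerve, immune), and genes called 169 (bursal), 1111 (endothelial), 476 (pericytes), 564 (immune), 274 (tendon fibroblasts 1 against 2), 284 (endothelial cells 1 against 2) and 672 (pericytes against endothelial). DESeq2 called 2 chemokines against nerve cells, and 371 and 570 genes within tendon fibroblasts and endothelial cells. With 10 or more cells per sum, the calls were 2 chemokines and 2288 genes against nerve cells and 6 chemokines against immune cells. The fit against immune cells then had 2 libraries and 5637 genes tested, and all genes called stayed within the limit of the main 1516. Without the top 3 Cxcl1, Ccl2 and Ccl7 cells of each library, 2 chemokines were called against nerve cells. The cause of these shifts was not tested beyond the number of genes and libraries left.

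Leaving out 1 library in turn, chemokines called ranged from 1 to 3 (bursal), 0 to 2 (pericytes), 1 to 2 (nerve), 0 to 6 (immune) and 1 to 2 (pericytes against endothelial). Genes called ranged from 838 to 2288 (nerve), 689 to 2860 (immune), 362 to 529 (tendon fibroblasts 1 against 2) and 484 to 997 (endothelial cells 1 against 2). They stayed within the limit for a count of the main 676 (bursal), 1800 (pericytes) and 1985 (pericytes against endothelial). The genes tested differed between these fits, so the counts of chemokines are not shares to be compared. With no replicate block, 2 chemokines were called against nerve cells, Cxcl14 at 2.24 (adjusted p = 0.00963), the Cxcl1 call against endothelial cells was lost, and no other chemokine call changed.

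With equal class sizes the endothelial share was 72.3% for Cxcl12 and 99.9% for Ccl21a (99.96% as counted). Thinned to 1000 UMIs, cells with a UMI were 84.2% for Cxcl12 in endothelial cells 1, 7.84% for Cxcl14 and 7.84% for Cxcl1 in tendon fibroblasts 3, and 8.70% for Ccl2 and 7.61% for Cxcl16 in immune cells; unthinned, the last 2 were 30.4% and 45.7%. At these depths a share of 0 in a population does not show absence.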

Other observations

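The red blood cells carried 132 UMIs of Pf4 and 42 of Ppbp, each from 1 cell of library 2. In nerve cells 3, Cxcl12 had 18.9, 220.1 and 0 CPM in libraries 1, 2 and 4, the second from 8 UMIs, of which 7 were in 1 cell, and these cells also had the highest summed level of dissociation and immediate early genes, 24779.9 ± 10762 CPM (SD, n = 3). Ackr1 was found in 27 of 156 tendon fibroblasts 2 (28.4 ± 6.46 CPM, SD, n = 3) and was lower in 1 than in 2 in 3 of 3 libraries (edgeR adjusted p = 0.0057).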
